A study of Mus musculus with 12 samples.

Results

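The Crls1-edited cell lines KO3 and KO1 were compared directly with each other, with 3 total RNA sequencing libraries of each, 6 of the 12 libraries of the study. A gene was tested when its normalized count reached 10 in at least 3 of these 6 libraries, which 14334 of the 54392 gene entries did. Both lines derive from NIH-3T3, an immortalised mouse embryonic fibroblast line. Per the labels' protocols, cells took up a plasmid with Cas9 and a guide RNA against Crls1, single GFP-positive cells were sorted, and each line grew from 1 cell. Lost Crls1 alleles were checked by sequencing genomic DNA, per the labels. The genotypes given are Crls1KO1 and Crls1KO3, in the same medium with glucose, pyruvate and uridine. The labels give neither the sequences of the edited alleles nor the position of the guide. Each genotype is represented by 1 line, so an effect of the edit and a property of the founding cell cannot be told apart. Nothing in the labels says whether replicate libraries stem from separate cultures, so each p-value reflects the spread among samples alone, and that spread may be technical. WT cells and another edited line, KO2, with 3 libraries each, are given as levels. They entered no test apart from an alternative with all 4 groups in 1 fit.

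Crls1 encodes cardiolipin synthase, which joins phosphatidylglycerol to CDP-diacylglycerol in the inner mitochondrial membrane. Its product, cardiolipin, holds respiratory complexes together and is remodelled by acyl exchange. Fibroblasts secrete and remodel extracellular matrix, keep positional identity through homeobox genes, and respond to amino acid shortage, oxidants, sterol levels and interferon through distinct sets of target genes.

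The libraries held 33300033 to 42211807 reads. Pairs of KO1 libraries had r = 0.990 to 0.991 on the log2 scale, computed with every gene that passed the filter. For KO3 pairs r was 0.987 to 0.990, and for pairs of KO1 with KO3 it was 0.942 to 0.945. Genes are not independent replicates. No pair of libraries from 1 line agreed within sampling noise: the chi-square per degree of freedom was 4.83 to 5.22 in KO1 and 10.3 to 18.9 in KO3. Of 12 fibroblast markers, 11 were expressed, Fap was at 0 in all 6 libraries, and the summed marker level was 887890.0 to 929810.0 in KO1 and 921130.0 to 940890.0 in KO3 libraries. Among defining markers of other cell types, Cldn4, Krt5, Cldn5, Snap25, Ckm, Myod1, Lep and Ibsp were at 0 in every library of both lines. Some other members of the same lists were expressed. Means in KO1 and KO3 were 350 and 307 for Cdh1, 210 and 148 for Tubb3, and 422 and 547 for Pparg. Runx2 had 1798 and 1717.5. No macrophage and leukocyte marker was at 0 in all 6 libraries, and Lyz2 had means of 1821.5 and 1033. In bulk RNA, fewer cells expressing a gene and less RNA per cell cannot be told apart.

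The edited gene itself differed between the lines. Crls1 (chr2:132846666-132866785, plus strand, GRCm38) had normalized counts of 209, 209 and 213 in the KO1 libraries and 363, 372 and 408 in the KO3 libraries. Every KO3 library was above every KO1 library, and all were below the WT level of 815 ± 68.4 (SD, n = 3). KO2 stood at 349 ± 21.1, near KO3. The difference between the lines was 0.85 in log2(value + 1) (SE 0.09, limma adjusted p = 4.59e-05), so KO3 had 1.81 times the Crls1 transcript of KO1. A transcript level does not show whether a functional protein is made from it.

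The genes that make and remodel cardiolipin around Crls1 differed little. Of 14 tested members of this list, 6 were higher and 2 lower in KO3, with a median difference of 0.11, beside 26.1% higher and 27.3% lower among all genes tested and a median of -0.005. Ptpmt1, the phosphatase that makes the phosphatidylglycerol used by Crls1, had 173, 145 and 134 counts in KO1 and 248, 247 and 276 in KO3 (0.77, SE 0.13, limma adjusted p = 0.000664). Pnpla8, a mitochondrial phospholipase, differed by 0.63. On the other side stood Prelid1, a carrier of phosphatidic acid across the intermembrane space, at -0.32, and the acyltransferase Lclat1 at -0.19. Pla2g6, Phb2, Hadha and Stoml2 were called higher by 0.16 to 0.30. Ptpmt1 and Pnpla8 lie where neighbouring genes were also higher. The neighbours' median was taken over a window of up to 41 genes around a gene, with the gene itself left out. With that median subtracted, Ptpmt1 and Pnpla8 stood at 0.40 and 0.32 (limma adjusted p = 0.0193 and 0.000202). Lclat1 stood at -0.37 and Stoml2 at 0.29 after the same subtraction. Tamm41 and Pgs1, the enzymes of the preceding steps, and Taz, the remodelling transacylase, differed by 0.01, -0.06 and 0.12 and did not pass the test. With the neighbours' median subtracted, the X-linked Taz was called higher, at 0.29 (limma adjusted p = 0.00927). The list then had 8 higher and 2 lower members, with a median of 0.18.

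Across the transcriptome the lines were far apart, and the strong differences ran mostly towards lower levels in KO3. At a limma adjusted p under 0.05, 3740 genes were higher (26.1%) and 3919 lower (27.3%) in KO3, 7659 together (53.4% of those tested), with a median absolute difference of 0.44 among the called genes. At least 2-fold differences numbered 386 higher (2.69%) and 1153 lower (8.04%). At 4-fold they were 134 (0.935%) and 584 (4.07%), and at 8-fold 55 (0.384%) and 337 (2.35%). Quantile normalization moved the share of higher genes among the 2-fold calls from 25.1% to 43.9%, while it stayed near the middle among all calls (48.8% and 53.2%). Part of the excess lay at low expression: with a mean of at least 100 over the 6 libraries, 175 of 11126 genes were higher and 416 lower by 2-fold. Of the genes tested, 425 reached 10 counts in KO1 libraries alone and 99 in KO3 libraries alone, and these had to differ. Without reference to a test, all 3 KO3 libraries were above all 3 KO1 libraries for 4293 genes (29.9%) and below them for 4491 (31.3%).

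**Figure D1:**
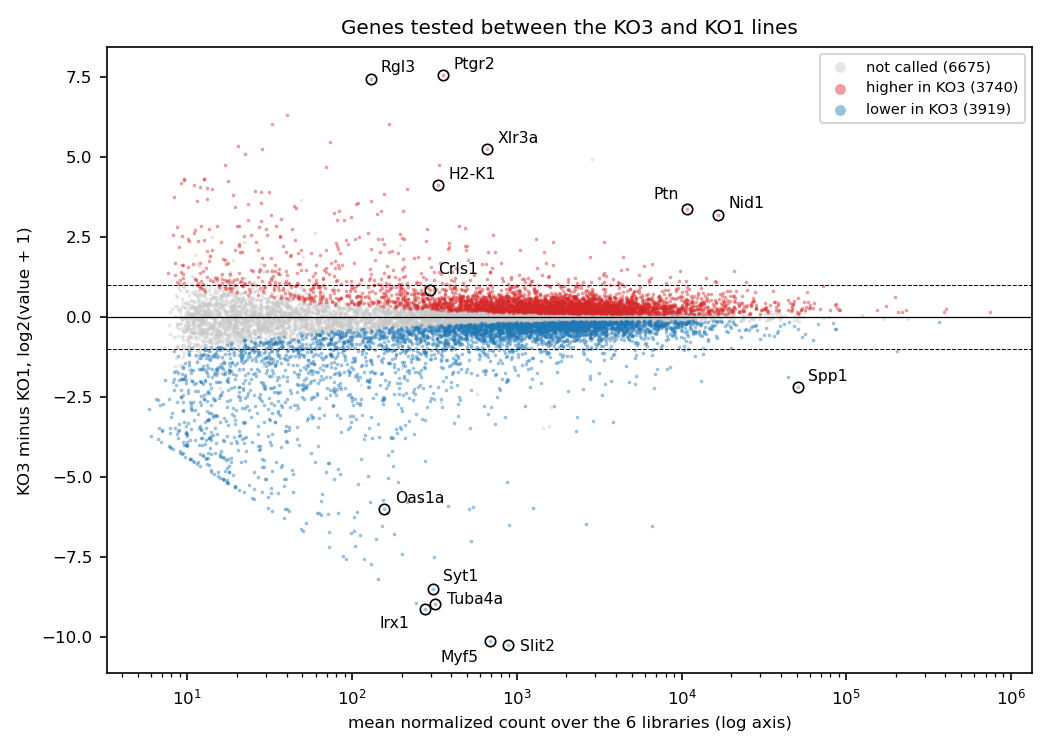
Difference between the lines (y axis, KO3 minus KO1 in log2(value + 1)) against the mean normalized count over the 6 libraries (x axis, log scale) for the 14334 genes tested. Dashed lines mark 2-fold, colours mark the 3740 genes called higher and the 3919 called lower in KO3, and named genes are ringed; points below -5 outnumber points above 5.

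WT levels of the strongly different genes were not on 1 side. Of the 1153 genes lower in KO3 by 2-fold, the WT mean lay nearer to KO3 on the log2 scale for 712 and nearer to KO1 for 441. Of the 386 higher genes, WT lay nearer to KO1 for 266 and nearer to KO3 for 120. KO2 divided them as 632 nearer to KO3 and 521 nearer to KO1 among the lower genes, and 121 against 265 among the higher ones. So in both directions the larger share of these genes had a WT level nearer to the line with the lower expression.

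The 2 strongest differences lay in genes that KO1 expressed and of which KO3 had almost no reads. Slit2, a secreted ligand of Robo receptors in axon guidance, had 1948, 1694 and 1651 counts in KO1, against 0, 0 and 2.13 in KO3. Myf5, a helix-loop-helix regulator that commits cells to skeletal muscle, had 1345, 1377 and 1412 against 0, 0.877 and 0. Both genes were at 0 in all 3 WT and all 3 KO2 libraries, so KO1 was the line that stood alone. For Slit2 the 5103 reads in KO1 faced 2 in KO3, a ratio of 2679 after scaling (95% counting interval 741 to 22124). For Myf5, 3997 reads faced 1, a ratio of 4196 (95% counting interval 753 to 165780). Because Salmon yields estimated counts, reads, zeros and such intervals may rest on rounded estimates, and intervals cover counting error only.

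The 120 bases upstream of the RefSeq start of Slit2 and Myf5, shown because they carry the extreme differences, differ in CpG content (GRCm38.p6, 5′ to 3′ in the gene's direction, CpG in capitals).
Slit2 (chr5:47983035-47983154, plus strand): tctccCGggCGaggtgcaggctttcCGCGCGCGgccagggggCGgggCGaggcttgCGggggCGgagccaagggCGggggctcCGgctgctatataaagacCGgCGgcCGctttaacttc
Myf5 (chr10:107486135-107486254, minus strand): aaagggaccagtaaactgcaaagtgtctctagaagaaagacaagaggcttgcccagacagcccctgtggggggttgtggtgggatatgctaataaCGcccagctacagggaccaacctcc
There are 15 CpG in the Slit2 stretch and 1 in that of Myf5, and 25 and 3 in the full 250 bases upstream of each. Over the 250 bases upstream, the median of 10236 tested genes with a RefSeq promoter was 16 CpG, and 28.1% had fewer than 10. Among genes lower in KO3 by at least 8-fold, 217 could be matched, with a median of 5 CpG and 73.3% under 10. The 40 matched genes higher by at least 8-fold had a median of 8.5 CpG, with 55% under 10. Both 8-fold sets were picked by the difference itself and include genes that reached 10 counts in 1 line alone. The comparison with all tested genes made no allowance for expression level, so it does not tie CpG content to the difference between the lines. These are counts of letters, and no methylation was measured.

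Another 16 genes had at most 3 reads over the 3 KO3 libraries with a KO1 mean of at least 100, so 18 were silent in KO3 and 1, Rgl3, in KO1. Irx1, an Iroquois homeobox factor, had 552, 506 and 608 counts in KO1 and no read in KO3, at least 564-fold lower against a floor of 3 reads over the KO3 libraries. Ednra, the endothelin A receptor, had 262, 329 and 271 and again no read, at least 291-fold lower. Dnah7b, an axonemal dynein heavy chain, had 322, 213 and 246 in KO1 and 0, 0.877 and 0 in KO3. Of the 18, 15 had WT and KO2 means under 20 normalized counts. The exceptions were Tuba4a, Grap and Sulf1, an extracellular sulfatase of heparan sulfate that was singled out after its values were seen. Tuba4a, an alpha-tubulin, was at 614, 663 and 632 in KO1 and 0, 0 and 1.07 in KO3, and at 1746 ± 49.2 in WT and 891 ± 31.4 in KO2 (SD, n = 3 each). For Tuba4a it was therefore KO3 that stood alone. Grap, an adaptor of the Grb2 family, was at 219, 190.0 and 213 against 0, 0 and 2.13, with WT beside KO1 at 216 ± 3.25.

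Ranked with predicted gene models left out, another 4 of the 12 strongest lower genes with a mean of at least 100 kept a few more reads in KO3. Among the models so left out was Gm10230, one of the 18 silent genes, with 487, 491 and 479 in KO1 and no read in KO3. Syt1, the calcium sensor of synaptic vesicle release, fell from 597, 625 and 631 counts in KO1 to 4.15, 0 and 0 in KO3 (limma adjusted p = 2.33e-06). Mapk10, the JNK3 kinase, was at 621, 638 and 609.9 and 2.07, 3.51 and 2.13. Ncan, the brain proteoglycan neurocan, had 426, 347 and 420.0 and 2.07, 0 and 3.20. Nckap1l, a WAVE complex subunit typical of blood cells, had 997, 1031 and 1105 and 5.18, 8.77 and 8.52. The ranking took only genes at which the lines did not overlap, as was so in this direction for 31.3% of all genes tested. WT was above both lines for Ncan (887 ± 62.9) and Nckap1l (1374 ± 124) and between the lines for Syt1 (163 ± 3.42) and Mapk10 (60.8 ± 14.1).

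In the opposite direction, Ptgr2 and Rgl3 led. Ptgr2, a prostaglandin reductase on chromosome 12, had 2.14, 1.06 and 6.89 counts in KO1 and 802, 748 and 570.0 in KO3 (7.56, SE 0.42, limma adjusted p = 8.75e-07). WT was at 459 ± 147 and KO2 at 0.319 ± 0.553, so KO1 and KO2 shared the low level. Rgl3, an exchange factor for Ral GTPases, had 2.14, 0 and 0 in KO1 and 240.5, 247 and 288 in KO3, with WT at 157 ± 16.9 and KO2 at 389 ± 44.7. Here KO1 stood alone. The same held for Xlr3a, a lymphocyte-regulated gene of the X chromosome (47.1, 35.9 and 19.7 against 1222, 1477 and 1149.6), and for H2-K1, a class I histocompatibility heavy chain (48.2, 35.9 and 23.6 against 692, 558 and 629), whose WT means were 1049 ± 234 and 962 ± 315. Slc12a7, a potassium-chloride cotransporter, was at 34.2, 34.8 and 39.3 in KO1, 366, 391 and 365 in KO3 and 451 ± 21.6 in WT.

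Other genes were high in KO3 without being expressed in WT. Gsta3, a glutathione transferase, had 34.2, 27.4 and 14.8 in KO1 and 421, 424 and 379 in KO3, with WT at 0.646 ± 0.564 and with close paralogs among which reads could be divided. Mamdc2, a secreted matrix proteoglycan, had 21.4, 20.1 and 16.7 and 331, 293 and 262, with WT at 1.47 ± 1.28. For these 2 genes KO1 was itself above WT and KO3 further above it. Ptn, the heparin-binding growth factor pleiotrophin, was the most abundant of the 12, at 1862, 1820.5 and 1943 in KO1 and 19851, 19211 and 19744 in KO3, a 10.5-fold difference (3.39, SE 0.04, limma adjusted p = 9.93e-11). Its WT level was 1623 ± 99.4, beside KO1, and KO2 lay between at 5782 ± 202.

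**Figure D2:**
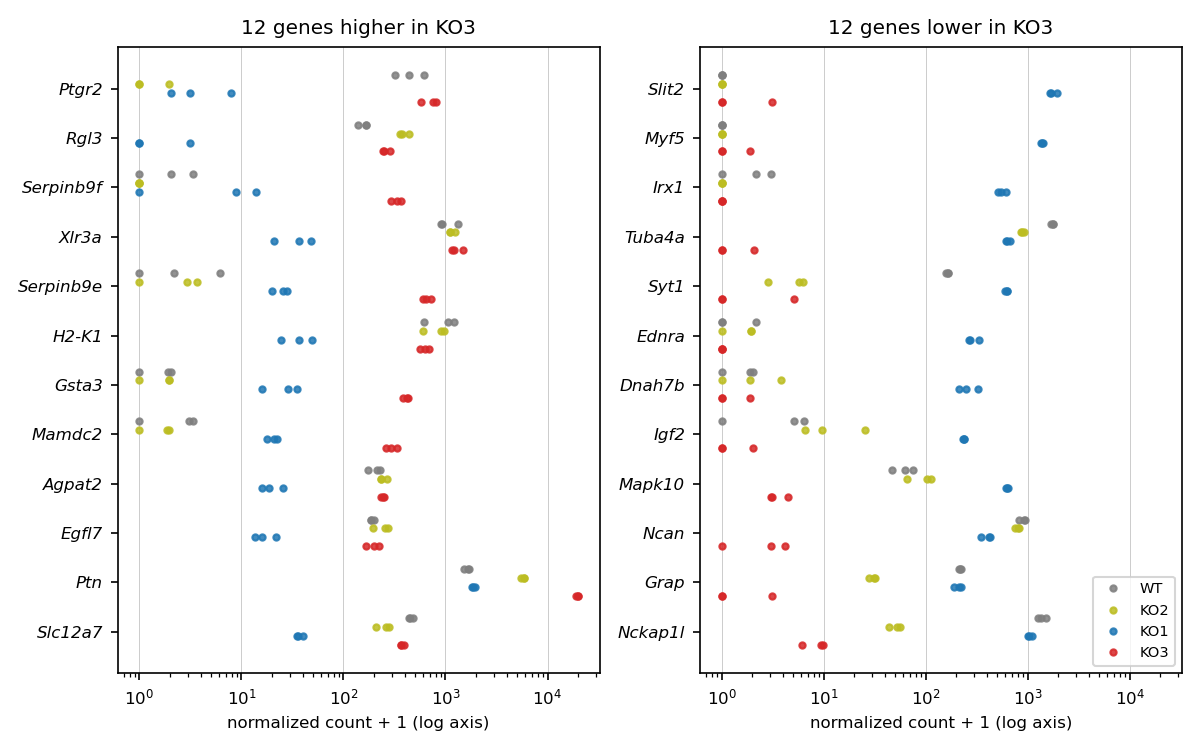
Normalized count + 1 (x axis, log scale) in each library for the 12 genes higher and the 12 lower in KO3 with the strongest differences (mean of at least 100, no overlap of the lines, predicted gene models left out). Each point is 1 library, coloured by line; Slit2 and Myf5 are at 0 in WT, in KO2 and in most KO3 libraries, while Xlr3a and H2-K1 are low in KO1 alone.

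The integrated stress response ran mostly in 1 direction. It is the programme by which ATF4, translated when eIF2 alpha is phosphorylated, switches on amino acid transport and synthesis. Of 36 tested members, 32 were higher and 1 lower in KO3, with a median of 0.69 (26.1% and 27.3% of all genes). Trib3, a pseudokinase target of ATF4, had 1918, 1815 and 1875 counts in KO1 and 7415, 6585 and 6699 in KO3 (1.88, SE 0.05, limma adjusted p = 1.52e-08). Ddit3, the CHOP transcription factor, had 1289.7, 1129 and 1178 and 4466, 4101 and 4630.3 (1.87, SE 0.06). The lines did not overlap at either gene, as was so in this direction for 29.9% of all genes tested. Vldlr, a lipoprotein receptor, differed by 1.63, the glycine transporter Slc6a9 by 1.31, and Ppp1r15a, the regulatory subunit that directs dephosphorylation of eIF2 alpha, by 1.10. The lower member was Cbs, cystathionine beta-synthase (-1.65), at 41.7, 11.6 and 18.7 in KO1 and 4.15, 5.26 and 9.59 in KO3. Cebpb, Nupr1 and Slc7a3 did not pass.

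Cytosolic aminoacyl-tRNA synthetases, which load transfer RNAs and include many ATF4 targets, differed in the same direction: 19 of 20 were higher and 0 lower in KO3, with a median of 0.56. Sars, the seryl enzyme, had 6623, 6496 and 6367 in KO1 and 11824, 12147 and 12035 in KO3 (0.89, SE 0.04, limma adjusted p = 1.36e-07). Wars, Aars, Mars and Eprs differed by 0.90, 0.83, 0.74 and 0.67. The lines did not overlap at these synthetases, named for their small adjusted p, as was so in this direction for 29.9% of all genes tested. Each differed by less than 2-fold, and Qars was the member that did not pass (0.01). Mars, in a region of chromosome 10 that was higher as a whole, was at 0.42 with its neighbours' median subtracted. Relative to the mean of the 12 libraries, the median stress response gene stood at 0.06 to 0.10 in KO1, 0.73 to 0.75 in KO3, -0.24 to -0.15 in WT and -0.75 to -0.65 in KO2. Edited lines were therefore found both above and below WT.

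The composite C/EBP-ATF element to which ATF4 binds was searched as TGATGNAA on both strands in the 250 bases upstream of the RefSeq start. It occurred in 6 of 31 matched stress response genes and 3 of 12 matched synthetases, against 2.07% of 10236 tested genes. Windows around it are shown for 3 genes of each list, chosen after the search, because they place a known element of the pathway beside the measured differences (GRCm38.p6, 5′ to 3′, element in capitals on either strand).
Asns (chr6:7693210-7693257, minus strand): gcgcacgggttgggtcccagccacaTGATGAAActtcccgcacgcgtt
Chac1 (chr2:119351024-119351081, plus strand): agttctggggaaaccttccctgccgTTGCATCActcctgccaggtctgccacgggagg
Slc7a11 (chr3:50443628-50443685, minus strand): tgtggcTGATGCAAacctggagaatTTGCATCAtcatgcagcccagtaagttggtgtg
Aars (chr8:111033705-111033762, plus strand): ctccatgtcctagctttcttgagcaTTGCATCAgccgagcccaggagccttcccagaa
Tars (chr15:11399659-11399698, minus strand): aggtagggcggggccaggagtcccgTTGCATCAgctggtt
Gars (chr6:55037946-55038000, plus strand): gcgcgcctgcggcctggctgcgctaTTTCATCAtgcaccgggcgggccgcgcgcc
Asns, asparagine synthetase, was higher in KO3 by 0.73, Chac1, a glutathione-degrading enzyme, by 0.84, and the cystine transporter Slc7a11 by 2.10. The synthetases Tars and Gars differed by 0.54 and 0.47. Nupr1 also held the element and did not differ past the test (0.04). A match of letters is not a binding site, and a gene without one may hold the element elsewhere.

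**Figure D3:**
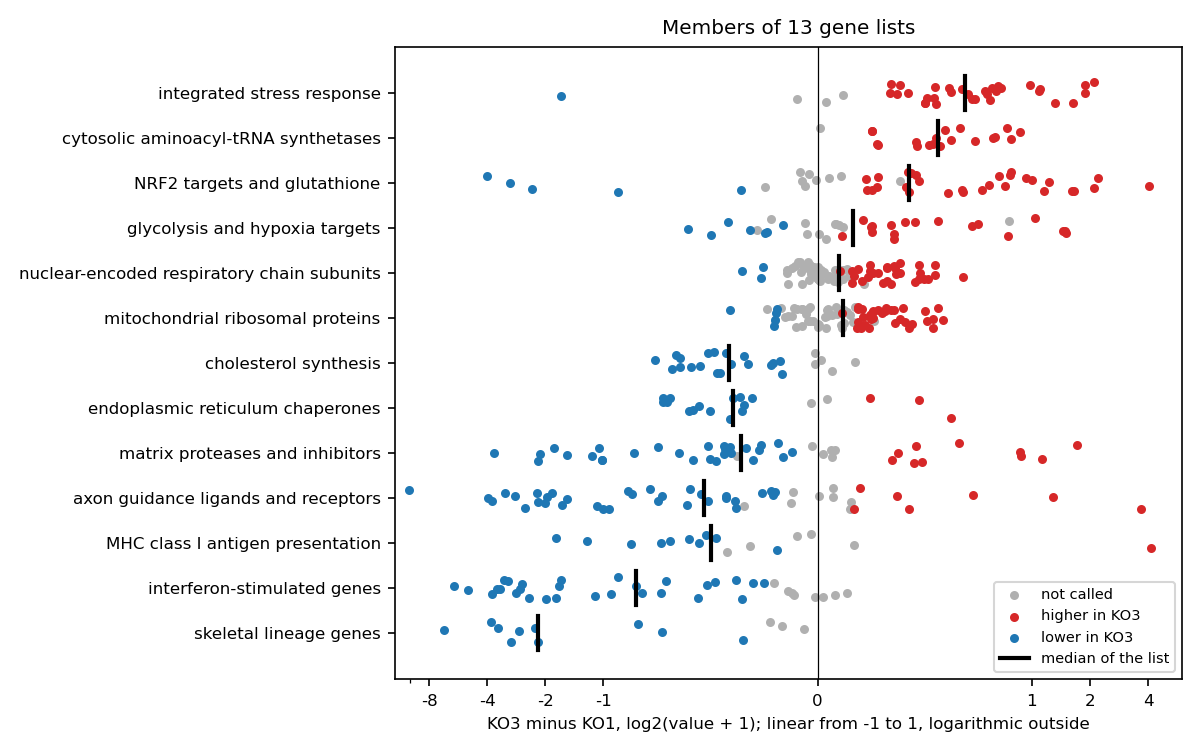
Difference between the lines (x axis, KO3 minus KO1 in log2(value + 1), linear between -1 and 1 and logarithmic outside) for each tested member of 13 gene lists (rows). Points are genes, red where called higher, blue where called lower and grey where not called, and the black bar is the median of the list, from 0.69 for the integrated stress response to -2.19 for skeletal lineage genes.

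NRF2 targets and glutathione genes, which detoxify oxidants and electrophiles, were also mostly higher in KO3: 29 of 43 higher, 5 lower, median 0.43. Nqo1, the quinone reductase, had 2898, 3056 and 2867 in KO1 and 9198, 9030.0 and 8686 in KO3 (1.61, SE 0.04, limma adjusted p = 1.18e-08). Aldh3a1, an aldehyde dehydrogenase, had 3244, 3055 and 3265 and 10032, 9749.5 and 10357 (1.66), with WT at 54.5 ± 16.7. Gsta1, Gsto1 and Gsta4, glutathione transferases, differed by 2.20, 1.22 and 1.16. All 5, named for their small adjusted p, had non-overlapping lines, as was so in this direction for 29.9% of all genes tested. The lower members were all glutathione transferases (Gstt1, Gstt3, Gstm2, Gstm7 and Gstk1, named after their values were seen), at -4.02 to -0.36. The antioxidant response element, searched as TGACNNNGC on both strands, lay upstream of 8 of 36 matched members against 12% of all tested genes.

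Hypoxia and glycolysis targets divided as 18 higher and 7 lower of 36, median 0.17. Ndrg1, Ero1l, an oxidase of disulfide bond formation, and Adm, the peptide adrenomedullin, differed by 1.49, 1.44 and 1.49, and the lactate transporter Slc16a1 and Vegfa by 0.89 and 0.72 (Vegfa 0.43 with its neighbours' median subtracted). Ndrg1 had 2345, 2166 and 2261 in KO1 and 6415, 6129 and 6535 in KO3. Among p53 targets, 8 were higher and 5 lower of 24, near the 26.1% and 27.3% over all genes, with a median of 0.04 and Gadd45a, a growth arrest gene, at 757, 672 and 706 and 2326, 2235 and 2378 (1.70). Trp53 itself differed by 0.54, Rrm2b by 0.68, Bbc3 by 0.67 and Sesn2 by 0.37. Apart from Gadd45a no called p53 target differed by 2-fold. Adipocyte differentiation genes were higher for 11 and lower for 1 of 18, median 0.30. Among them were Plin4, a lipid droplet coat protein (1.10), Agpat2, which makes phosphatidic acid (3.63), Klf4 (0.44), Lpl (0.34) and Dlk1, an inhibitor of adipogenesis (0.47). With the neighbours' median subtracted, Lpl and Dlk1 were at 0.51 and 0.22. Adipocyte markers summed to 431 to 437 in KO1 and 559.8 to 580.0 in KO3, with Lep at 0 and all but Pparg (0.37) below a mean of 10, and their part in the result was not tested.

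Interferon-stimulated genes were mostly lower in KO3. These encode antiviral effectors induced by interferon signalling. Of 37 tested, 0 were higher and 29 lower, 16 by at least 2-fold, with a median of -0.85. Over all genes tested, 27.3% were lower, 8.04% by at least 2-fold. Oas1a, a sensor of double-stranded RNA, had 349, 281 and 302 in KO1 and 4.15, 2.63 and 5.33 in KO3 (-5.98, SE 0.25, limma adjusted p = 1.49e-07). Gbp2 and Gbp7, interferon-induced GTPases, had 975, 981 and 906 against 321, 283 and 299 and 82.4, 84.4 and 61.0 against 2.07, 0.877 and 1.07. Bst2, which tethers budding virus, had 283, 264 and 259.7 and 44.6, 42.1 and 34.1. Ifit1, which binds foreign RNA caps, had 62.1, 64.4 and 61.0 and 6.22, 5.26 and 5.33. Oas1a, Gbp7 and Ifit1 reached 10 counts in KO1 libraries alone, so they had to differ. None of the 5, named for their small adjusted p, overlapped between the lines, as was so in this direction for 31.3% of all genes tested. In Oas1a, Bst2, Gbp7 and Ifit1 the WT mean (154 ± 10.5, 112 ± 28.3, 14.0 ± 2.27 and 15.0 ± 3.35) was between them. The same was true of Gbp2, with WT at 509.8 ± 38.2 and KO2, at 1461 ± 19.6, above KO1. Median members stood at 0.39 to 0.53 in KO1 libraries, -0.37 to -0.31 in KO3, -0.48 to -0.32 in WT and 0.46 to 0.50 in KO2, relative to the mean of the 12 libraries. Macrophage and leukocyte markers summed to 1964 to 2126 in KO1 and 1034 to 1255 in KO3. Of that marker list 3 of 5 tested were lower, Lyz2 made up most of the sum (1830.1, 1851 and 1783 against 1058, 917 and 1124), and the part of these markers in the result was not tested.

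The interferon-stimulated response element, searched as GAAA, any 2 bases and GAAA again on both strands in the same 250 bases, lay upstream of 15 of 26 matched members, against 2.71% of 10236 tested genes. It is printed for the 5 genes above because all hold it (GRCm38.p6, 5′ to 3′, element in capitals on either strand, overlapping matches joined).
Oas1a (chr5:120907526-120907564, minus strand): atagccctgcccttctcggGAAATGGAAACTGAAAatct
Gbp2 (chr3:142620579-142620638, plus strand): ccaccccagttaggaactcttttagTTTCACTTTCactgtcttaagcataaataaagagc
Bst2 (chr8:71537562-71537621, minus strand): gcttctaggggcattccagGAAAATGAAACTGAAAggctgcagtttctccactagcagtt
Gbp7 (chr3:142530258-142530317, plus strand): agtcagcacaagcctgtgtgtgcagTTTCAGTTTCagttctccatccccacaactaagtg
Ifit1 (chr19:34640779-34640838, plus strand): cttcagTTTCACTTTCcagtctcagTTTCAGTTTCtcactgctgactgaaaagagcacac
Oas1a and Bst2 have overlapping matches, and Ifit1 has separate ones. Ifit3, Ifit3b and Stat2 also held the element, and their differences of 0.08, -0.14 and -0.12 did not pass the test, so matches lay upstream of called and uncalled members alike.

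**Figure D4:**
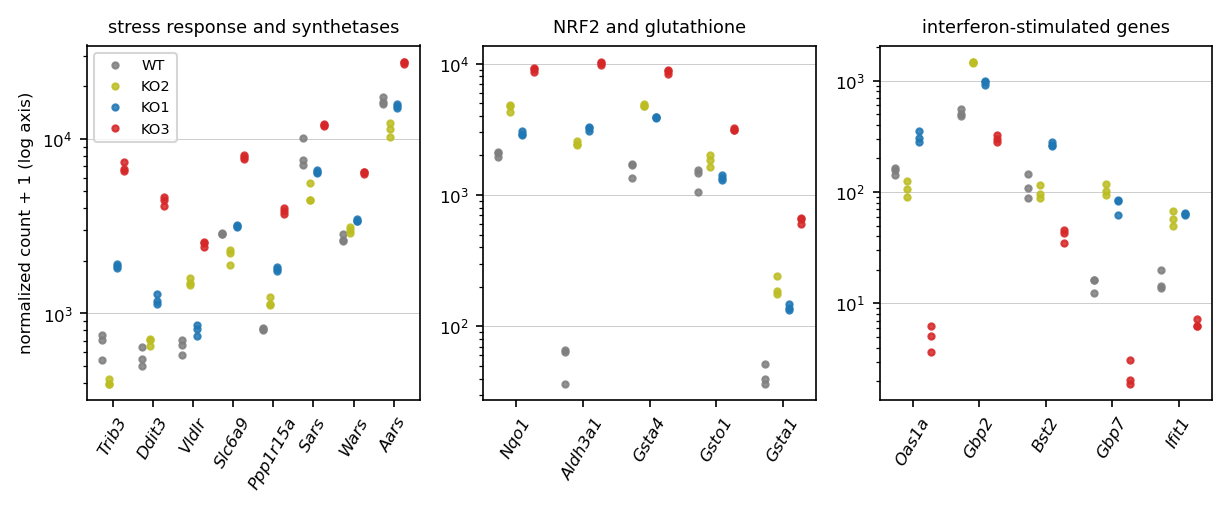
Normalized count + 1 (y axis, log scale) in each of the 12 libraries for 8 stress response and synthetase genes, 5 NRF2 and glutathione genes and 5 interferon-stimulated genes (x axes). Each point is 1 library, coloured by line; KO3 points are above those of KO1 in the left and middle panels and below them in the right panel.

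Class I antigen presentation, partly controlled by interferon, divided within itself: 1 member was higher and 10 lower of 16, median -0.50. Tap2, a peptide transporter subunit, had 1496, 1378 and 1416 in KO1 and 693, 517 and 641 in KO3 (-1.22). H2-D1, a heavy chain, had 13820.2, 13836 and 14309 and 9907, 10019.8 and 10321 (-0.47). H2-K1, the other classical heavy chain, was the higher member at 4.14. Class I genes are near-identical in part of their sequence, so reads could be shared between them. Chemokines and cytokines had 4 higher and 9 lower of 19 (median -0.33; 3 lower with quantile normalization), with Cxcl5, Cxcl1, Ccl7 and Tnfrsf11b, the decoy receptor osteoprotegerin, higher by 0.75, 0.65, 0.93 and 1.49, and Csf1 at -0.52. Cxcl5 and Cxcl1 were at 0.49 and 0.41 with the neighbours' median subtracted.

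Sterol synthesis genes were mostly lower in KO3, by small amounts. Of 24 cholesterol genes 0 were higher and 19 lower, median -0.42. Insig1, the sterol-sensing retention protein, had 4649, 4629 and 4703 in KO1 and 2966, 3009.7 and 2967 in KO3 (-0.64, SE 0.04, limma adjusted p = 1.08e-06), below a WT level of 8062 ± 72.7. Nsdhl, Msmo1 and Cyp51, enzymes of the later steps, differed by -0.66, -0.48 and -0.43. With the neighbours' median subtracted, the X-linked Nsdhl was at -0.42 and Cyp51 at -0.70. No member reached 2-fold. Median members stood at -0.03 to -0.005 in KO1, -0.42 to -0.39 in KO3, 0.63 to 0.69 in WT and -0.49 to -0.29 in KO2. Fatty acid synthesis was divided, 4 higher and 5 lower of 17, near the shares over all genes (median 0.03, and -0.02 with quantile normalization), with Fads3 and the malic enzyme Me1 at 0.58 and 0.42, and Scd2, Acss2 and Elovl1 at -0.36, -0.47 and -0.34. Fatty acid oxidation had 8 higher and 4 lower of 24 (median 0.09). Pdk4, the kinase that restrains pyruvate dehydrogenase, was its strongest member, 1130.2, 1118 and 1196 in KO1 and 291, 376 and 336 in KO3 (-1.78), with WT at 48.1 ± 10.4. Decr1, Eci1 and Acadvl, enzymes of the oxidation spiral, differed by 0.51, 0.72 and 0.37, and Eci2 by -0.34 (-0.61 with its neighbours' median subtracted).

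Chaperones and quality control genes of the endoplasmic reticulum were mostly lower: 3 were higher and 14 lower of 19 (median -0.39; 2 higher and 15 lower with neighbours subtracted). Calr, a calcium-binding lectin chaperone, had 66807, 64478 and 64544 in KO1 and 42637, 43089 and 43441 in KO3 (-0.60). Manf, Pdia3 and Pdia4 differed by -0.72, -0.56 and -0.50. The higher members were Hspa5, the central chaperone BiP (0.25), and Edem1 and Sel1l of the degradation machinery (0.47 and 0.62), of which Hspa5 and Edem1 were named after their values were seen. Sel1l, on chromosome 12, was at 0.30 with its neighbours' median subtracted. Hspa5 lies in chr2:32587095-75938585, a region that was higher as a whole, with a median of 0.38 that exceeds its own difference. The difference in direction between this list and the stress response list was not tested.

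Mitochondrial genes differed by small amounts. Mitochondrial ribosomal proteins had 33 higher and 5 lower of 78 (median 0.12), with Mrps18b, Mrps2, Mrpl2, Mrpl15 and Mrpl42 at 0.56, 0.54, 0.54, 0.44 and 0.38. With the neighbours' median subtracted, Mrps2, Mrpl2 and Mrpl42 fell to 0.30, 0.26 and 0.14 and stayed called. Nuclear-encoded respiratory subunits had 30 higher and 3 lower of 75 (median 0.10; 7 lower with quantile normalization and 1 with neighbours subtracted), with Ndufa12 and Ndufs3 of complex I at 0.68 and 0.55, Cox4i1 of cytochrome oxidase at 0.48, and Atp5c1 and Atp5b of ATP synthase at 0.51 and 0.45. All but Cox4i1 of these 5 had neighbours that were also higher in KO3. With the neighbours' median subtracted, Ndufa12, Ndufs3, Atp5c1 and Atp5b were at 0.40, 0.20, 0.18 and 0.12, still called (limma adjusted p up to 0.0383). No member of either list reached 2-fold. Of 9 mitochondrially encoded messenger RNAs, 5 were called higher and 0 lower (median 0.18; 3 higher and a median of 0.04 with quantile normalization). Mt-Nd6, the light-strand message, had 2301, 2310.2 and 1764 in KO1 and 3850.0, 5756 and 3799 in KO3 (1.06, SE 0.16, limma adjusted p = 0.00044). The heavy-strand messages mt-Nd5, mt-Nd1, mt-Cytb and mt-Co1 differed by 0.36, 0.23, 0.18 and 0.16, and mt-Co1 by 0 with quantile normalization. The values of mt-Nd2, mt-Co2, mt-Co3 and mt-Nd3 were 0.07, 0.04, 0.24 and -0.26 and did not pass. Mt-Co3 spread widely within a line, 31538, 20571 and 33741 in KO1 and 40206, 18425 and 48948 in KO3.

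Genes of the secreted matrix differed in both directions. Of 43 matrix glycoproteins and proteoglycans, 13 were higher and 22 lower (median -0.30). Nid1, the basement membrane linker nidogen 1, had 3196, 3337 and 3158 in KO1 and 29959, 30902 and 28941 in KO3, 9.27-fold higher (3.21, SE 0.04, limma adjusted p = 1.32e-10), while its paralog Nid2 was at 2115, 1999 and 2025 and 644, 571 and 620.1 (-1.74). Spp1, osteopontin, had 83040.2, 83994 and 81988 and 17548, 18717 and 18384 (-2.19). Tnc, tenascin C, and Thbs1, thrombospondin 1, differed by -2.43 and -1.85. The nidogens thus differed in opposite directions.

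Collagens had 6 higher and 16 lower of 27 (median -0.29). The basement membrane chain Col4a2 was higher (0.76), while Col4a6, Col6a1, Col6a2 and Col28a1 were at -0.64, -0.54, -0.61 and -1.84. Col4a6 lies on the X chromosome, which was lower as a whole, and with its neighbours' median subtracted its call was lost (-0.05, limma adjusted p = 0.299). Matrix proteases and inhibitors had 10 higher and 28 lower of 44 (median -0.36). Lox, the collagen crosslinking oxidase, had 275183, 268946 and 276893 in KO1 and 133359, 132886 and 127863 in KO3 (-1.06). Timp1, a metalloproteinase inhibitor, Adamts1 and Pappa differed by -1.02, -1.01 and -1.80. Among fibroblast markers, 3 were higher and 6 lower of 11 (median -0.18; 1 higher with quantile normalization, 0 higher and 7 lower with neighbours subtracted), with Thy1 at -0.89, Col3a1 at -1.11 and Vim at 0.43. Vim lost its call with its neighbours' median subtracted (0.10, limma adjusted p = 0.138).

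Adhesion genes were read as cadherins and integrins. Of 20 cadherins and protocadherins, 0 were higher and 10 lower (median -0.68; 2 higher and 11 lower with quantile normalization). Cdh15, the cadherin of muscle precursors, had 167, 125 and 141 in KO1 and no read in KO3, at least 146-fold lower, and Cdh5, the endothelial cadherin, had 151, 188 and 153 and 4.15, 3.51 and 6.39. Cdh15 and Cdh5 reached 10 counts in KO1 libraries alone, so they had to differ. Pcdh18, Pcdh10 and Pcdh19 differed by -1.08, -1.12 and -0.60, the X-linked Pcdh19 by -0.14 with its neighbours' median subtracted. Endothelial markers summed to 287 to 339 in KO1 and 122 to 188 in KO3, with Cldn5 at 0, and 0 were higher and 2 lower of 4. Cdh5 is itself one of these markers and made up most of the difference between the sums, while Vwf had 87.8, 98.1 and 147 against 97.4, 93.0 and 102 and Tek 9.63, 25.3 and 12.8 against 19.7, 21.1 and 59.7. The part of these markers in the cadherin result was not tested. Integrins had 6 higher and 8 lower of 22, near the 26.1% and 27.3% over all genes (median -0.04, and 0.03 with quantile normalization), with Itga6 and Itga3, laminin receptors, at 0.93 (0.48 with its neighbours' median subtracted) and 0.69, and Itga8, Itga1 and Itgbl1 at -1.62, -1.30 and -0.73.

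Targets of YAP and TEAD, which report cell tension, had 5 higher and 11 lower of 24 (median -0.12), the direct targets Ccn1 and Ccn2 at -0.56 and -1.13 and Ankrd1 at 0.77. Smooth muscle contractile genes had 3 higher and 6 lower of 18 (median -0.09), beside 26.1% higher and 27.3% lower over all genes tested. Tagln, transgelin, fell from 320.0, 336 and 304 in KO1 to 22.8, 21.9 and 23.4 in KO3 and Cnn1, calponin, from 131, 96.0 and 82.6 to 14.5, 14.9 and 5.33, while Acta2 had 7057, 6662 and 6629.8 and 6723, 6322 and 6728 and did not pass. Tpm2, Actn1 and Tpm4 differed by 0.46, 0.35 and -0.29. After subtraction of the neighbours' median, Actn1 was at 0.14 and Tpm4 lost its call (-0.06, limma adjusted p = 0.314). Smooth muscle markers summed to 9303 to 10130.0 in KO1 and 8006 to 8559 in KO3, with 3 of 5 lower and 0 higher, and their part in the result was not tested. TGF-beta and BMP signalling had 7 higher and 21 lower of 37 (median -0.21; 4 higher with neighbours subtracted). The receptor Tgfbr2 was at -1.32, the target Id4 at -2.70, and the latency protein Ltbp1 and the activin antagonist Fstl3 at 1.51 and 1.80.

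Axon guidance ligands and receptors, to which Slit2 belongs, were lower in KO3 for 33 and higher for 7 of 48 (median -0.53). Sema3a, a repulsive semaphorin, had 6849, 7329 and 6747 in KO1 and 3346, 3607 and 3466 in KO3 (-1.01). Nrp2, a coreceptor of other semaphorins, was higher, 1958, 2076 and 2041 against 4914, 5099 and 4849 (1.29). The netrin receptor Unc5d and the ephrin receptor Epha4 differed by -2.19 and -1.08. Neuron markers summed to 847 to 860.1 in KO1 and 132 to 197 in KO3, with Snap25 at 0, and 0 were higher and 2 lower of 3. Syt1, given above among the strongest lower genes, made up most of the sum in KO1, and Tubb3 had 228, 209 and 192 against 151, 122 and 170.5 (-0.51). The part of these neuron markers in the result was not tested. Wnt ligands, receptors and inhibitors had 3 higher and 9 lower of 18 (median -0.21), with the R-spondin receptor Lgr4 at -0.99, Ror1 at -0.77 and Fzd5 at -0.52, but the Frizzled receptors Fzd4 and Fzd7 at 0.79 and 0.44.

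Growth factors and receptor tyrosine kinases had 12 higher and 16 lower of 40 (median -0.02, and 0.01 with quantile normalization). Beside Ptn, Vegfa was higher (0.72), and Hgf, hepatocyte growth factor, had 1114, 1157 and 1076 in KO1 and 427, 433 and 389.9 in KO3 (-1.42). Igf2, the imprinted insulin-like growth factor, had 233, 237 and 238 and 1.04, 0 and 0, with WT at 3.19 ± 2.83. Among imprinted genes, 5 were higher and 13 lower of 26 (median -0.34). Snrpn and Peg12, paternally expressed neighbours of the Prader-Willi region, were at 767, 762 and 719 against 236, 231 and 217 and at 63.1, 51.7 and 38.4 against no read, the latter at least 51.4-fold lower. Mirg, a noncoding RNA of the Dlk1 domain, was at -2.19 and Asb4 at 1.63.

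Skeletal and myogenic lists held more lower than higher members. Skeletal lineage genes had 0 higher and 10 lower of 13 (median -2.19; -1.02 with quantile normalization). Sox9, the regulator of cartilage, had 3721, 3827 and 3898 in KO1 and 2051, 2044 and 2317 in KO3 (-0.84), Sox6 had 152, 326 and 137 and 1.04, 0 and 2.13, and the blood and bone regulator Runx1 differed by -0.73. Col10a1, the collagen of hypertrophic cartilage, had 76.0, 59.1 and 56.1 and 8.29, 9.65 and 4.26. Sox6 and Col10a1 reached 10 counts in KO1 libraries alone, so they had to differ. Osteoblast and chondrocyte markers summed to 5311 to 5956 in KO1 and 3629 to 4080.5 in KO3, of which Sox9 and Runx2 made up most, with Ibsp at 0, and 0 were higher and 2 lower of 3. Their part in the result was not tested. Myogenic factors had 1 higher and 5 lower of 10 (median -0.37), with Tnnt2, Eya1 and Mef2c at -1.77, -1.05 and -0.60 beside Myf5. Skeletal muscle markers summed to 166 to 218 in KO1 and 159.6 to 164 in KO3, almost all of it Des, and the 1 tested did not pass.

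T-box, homeobox and patterning factors had 10 higher and 22 lower of 41 (median -0.32; 6 higher with neighbours subtracted), with Tbx3 and Prrx1 at -0.99 and -0.58 and Gata4 at 1.14. Hox genes, which record position along the body axis, had 5 higher and 9 lower of 21 (median -0.38; 3 higher with neighbours subtracted). Hoxa10 had no read in KO1 and 61.2, 75.5 and 59.7 in KO3, at least 63.8-fold higher, and Hoxa9 no read against 11.4, 20.2 and 23.4, at least 17.8-fold higher. Both were expressed in WT (86.3 ± 6.23 and 10.3 ± 1.80). In the other cluster, Hoxb3 had 67.4, 65.4 and 70.8 and 13.5, 6.14 and 11.7, Hoxb5 27.8, 33.8 and 31.5 and 4.15, 2.63 and 4.26, and Hoxb6 111, 69.7 and 111 and 8.29, 14.0 and 8.52. The lines thus differed in opposite directions at some genes of 2 Hox clusters. These 5 genes were named for their small adjusted p, and the lines did not overlap at them. Over all genes tested, that was so for 29.9% in the higher and 31.3% in the lower direction. Hoxa10, Hoxa9 and Hoxb5 reached 10 counts in 1 line alone, so they had to differ.

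Cell cycle genes differed little. DNA replication had 14 higher and 2 lower of 36 (median 0.06; 4 lower with quantile normalization), with Mcm7, Cdt1, Rrm2 and Rfc4 at 0.62, 0.42, 0.40 and 0.41 and the cyclin Ccne1 at -0.66. Relative to the neighbours' median, Cdt1 was at 0.22 and Rrm2, in a region of chromosome 12 that was higher as a whole, lost its call (0.12, limma adjusted p = 0.0975). Mitosis genes had 14 higher and 7 lower of 35 (median 0.10; 12 and 10 with quantile normalization, 12 and 1 with neighbours subtracted), with Tpx2, Prc1, Top2a and Cdk1 at 0.43, 0.42, 0.40 and 0.41, and the X-linked kinesin Kif4 at -0.39. Subtracting the neighbours' median left Kif4 at 0.05 (limma adjusted p = 0.354) and Cdk1 at 0.18. Epithelial markers did not pass the test in 2 of 2 tested members (Cdh1 -0.19, Krt14 0.49), with sums of 363 to 383 in KO1 and 330.3 to 347 in KO3.

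Differences were also arranged by chromosome. Among genes with a mean of at least 50, the median was -0.36 on the X chromosome, where 273 of 409 genes were lower and 35 higher in KO3, and 0.30 on chromosome 12, where 269 of 447 were higher and 58 lower. Chromosomes 17 and 10 had medians of 0.19 and 0.18, and the other chromosomes lay between -0.09 and 0.08. The library medians of the lines did not overlap on these 4 chromosomes, nor on most others, chromosomes 8 and 9 with medians of 0.02 and -0.02 included. On the X chromosome the library medians were 0.17 to 0.19 in KO1 and -0.23 to -0.15 in KO3, and on chromosome 12 -0.16 to -0.15 and 0.13 to 0.17. No DNA was measured here.

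**Figure D5:**
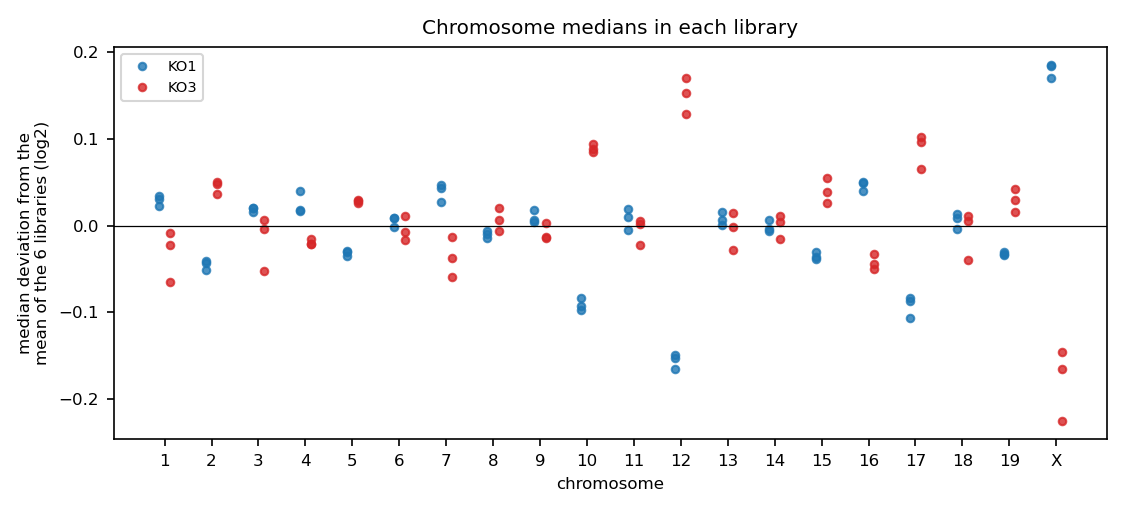
Median deviation of the genes of each chromosome (x axis) from their mean over the 6 libraries (y axis, log2), for genes with a mean of at least 50. Each point is 1 library, blue for KO1 and red for KO3; chromosomes 10, 12 and 17 are higher and the X chromosome lower in KO3 in all 3 libraries, and most other chromosomes have smaller separations.

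Along the chromosomes, windows of 41 neighbouring genes departed by at least 0.25 in 58 regions with 1364 genes (11.5% of the genes placed), and 19 of these regions held at least 20 genes (13 higher, 6 lower). Chromosome 12 was higher over chr12:24043202-61991769 (97 genes, median 0.37) and chr12:83794034-102758672 (81 genes, 0.36). The latter holds Acot2, a mitochondrial acyl-CoA thioesterase (2.03), and Ptgr2. Chromosome 2 was higher over chr2:6097607-27536535 (100 genes, 0.36), with the neighbours Agpat2 and Egfl7 (24.6, 14.8 and 17.7 against 251, 233 and 241 and 15.0, 12.7 and 20.7 against 224, 166 and 196), and over chr2:32587095-75938585 (149 genes, 0.38). Ddit3 and Shmt2 lie in chr10:127000709-128525871 (49 genes, 0.32). With the median of their neighbours subtracted they still differed, by 1.56 and 0.78 (limma adjusted p = 8.69e-08 and 1.23e-06), whereas Atp5b and Mars of the same region went from 0.45 to 0.12 and from 0.74 to 0.42. On the X chromosome the regions chrX:8123301-73068191 (122 genes, -0.32) and chrX:86398204-162888447 (193 genes, -0.46) were lower. The second holds Nxf3, a member of the RNA export factor family (2313, 2428 and 2616 against 43.5, 41.2 and 30.9). In the first, Mbnl3, a splicing regulator, went the other way (545, 556 and 511 against 2958, 2729.8 and 2626).

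The steepest of the 19 regions was a cluster of zinc finger genes on chromosome 4. Over chr4:144892827-147809840, 24 of 33 genes were lower and 2 higher in KO3, with a median of -1.83. Rex2 had 7794, 7755 and 7546 in KO1 and 1829.6, 2019 and 1825 in KO3, Zfp979 8536, 8379 and 8176 and 1960.2, 2172 and 1871, and Zfp987 1369.9, 1359 and 1306 and 139.9, 139 and 123. WT means were 4387 ± 716, 3594 ± 434 and 190.1 ± 67.3, between the lines for each. The KO2 mean was below every KO3 library for Zfp987 (52.8 ± 3.95) and within the range of the KO3 libraries for Rex2 (1840.5 ± 134) and Zfp979 (1888 ± 60.9). Another stretch, chr1:77367185-85709998 (25 genes, median -0.87), included Irs1, the insulin receptor substrate (1360.3, 1279 and 1328 against 644, 645 and 677), and Sp110, a nuclear body protein (1202, 1289 and 1370.2 against 286, 244 and 302). Rex2, Zfp987 and Irs1 remained lower after subtraction of the neighbours' median, at -0.91, -2.21 and -0.53. Zinc finger genes of such clusters are near-identical in places, so the share of each member is uncertain.

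Short runs of adjacent genes also differed in the same direction. Runs of at least 3 neighbouring tested genes all called in 1 direction by 4-fold, a definition chosen after the values were seen, numbered 19 with 72 genes, 18 lower and 1 higher in KO3 (0.935% of genes were higher and 4.07% lower by 4-fold). Many genes of the lower runs, Acss3, Ptprq, Igf2os, Gbp8 and Gimap1 among them, reached 10 counts in KO1 libraries alone and had to be lower. In the higher run, Gm11397 reached 10 in KO3 libraries alone. Over all genes tested, 425 passed the filter through KO1 alone and 99 through KO3 alone, so the division of the runs by direction is no independent result. The higher run, chr13:33149275-33496004, held Serpinb9 genes and the predicted Gm11397, 6 genes at 2.05 to 6.05. In it Serpinb9e had 26.8, 18.997 and 24.6 in KO1 and 636, 712 and 607 in KO3 and Serpinb9f 12.8, 0 and 7.87 and 336, 362 and 289.8, with WT at 2.12 ± 2.71 and 1.13 ± 1.18. The longest, chr12:103442167-103989957, had 8 genes at -6.51 to -2.10: Ifi27l2a, an interferon-induced gene, the antitrypsin genes Serpina1a to Serpina1e, the predicted Gm8893, and Serpina11. Chromosome 12 as a whole was higher. Serpina1a in it had 13426, 12701 and 13079.6 in KO1 and 143, 133 and 150.2 in KO3, with WT at 160.0 ± 21.2.

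Further lower runs held Acss3, Myf5 and Ptprq (chr10:106933517-107720051), in which Ptprq, a receptor phosphatase, had 217, 225 and 223 and 1.04, 0.877 and 1.07. One held Igf2, Igf2os and Tspan32 beside predicted models (chr7:142591744-143019644), where Tspan32 had 1114, 916 and 1159.7 in KO1 and 14.5, 20.2 and 14.9 in KO3, with WT at 276 ± 43.4. Others were Gbp8, Gbp9 and Gbp4 (chr5:105014150-105139586), the carboxylesterases Ces1d, Ces1f and Ces1g (chr8:93166068-93337308), and Gimap6, Gimap1 and Gpnmb (chr6:48701582-49070929), with Gpnmb, a transmembrane glycoprotein, at 5199, 5145 and 5210.4 and 43.5, 73.7 and 60.7. Members of the serpin, Gbp and Ces1 families are close copies of each other, and the counting may have divided their reads. The labels do not state whether counting used strand, so Igf2os and Igf2, which overlap, cannot be told apart by strand.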

How the data were processed

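Total RNA of 12 NIH-3T3 samples, 3 libraries each of WT, KO1, KO2 and KO3, was sequenced after depletion of cytoplasmic ribosomal RNA with random hexamer priming, per the labels' protocols. The authors deposited a table of normalized counts, a depth-scaled signal per gene. The submitters' processing notes name cutadapt, Salmon 0.14.1, DESeq2 1.24.0 and the builds GRCm38 and mm10. The notes give them no role or order. The authors' tables of comparisons were not used here. Values were whole multiples of a step per library, within 0.02 of a whole read for 99.98% to 99.99% of values, which gave the reads per library. Salmon estimates counts, so these reads may be rounded estimates. No column was left unmapped (0). Of 54392 gene entries, 54357 matched GENCODE M21 annotation by ID. Promoter sequences came from RefSeq (GRCm38.p6). The transcripts mt-Nd4, mt-Nd4l, mt-Atp6 and mt-Atp8 were not analysed here.

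Genes that reached 10 in 3 or more of the 6 libraries entered limma 3.58.1 (R 4.3.3) on log2(value + 1), with line as the sole term, a two-sided test, Benjamini-Hochberg adjustment over the 14334 genes and a threshold of 0.05. Differences on that scale understate the change of low genes. The procedure was tested on simulated data first. The members and the 44 gene lists were chosen with earlier results of these data known, and list counts and medians carry no test. Every list count is to be read beside the 26.1% higher and 27.3% lower over all genes tested. Genes were named by rule: Crls1, the 12 strongest in each direction at a mean of at least 100, the 6 highest silent genes, up to 5 per list and 3 per region with the smallest adjusted p, and the cardiolipin and mitochondrial lists, with predicted gene models left out of the rankings. Further genes, Asns, Cbs, Chac1, Edem1, Gars, Gpnmb, Hspa5, Ifit3, Ifit3b, Nupr1, Ptprq, Qars, Serpina1a, Slc7a11, Stat2, Tars and Tspan32, were chosen after their values were seen. Some genes that the rule names are not reported here. No list median changed when genes without a read were set to their bound. Alternatives were pseudocounts of 0.5 and 5, other filters, quantile normalization, edgeR 4.0.16 and DESeq2 1.42.0 on the recovered reads, all 4 groups in 1 fit, subtraction of the neighbours' median, other windows, a replicate block, and each library left out. Replicate numbers are shared by KO1 and KO3. Deviations from the line means over 11126 genes correlated at 0.36, 0.30 and 0.32 between libraries with the same number and at -0.42 to 0.14 between others, so the numbers were taken to pair the libraries. That pairing comes from the data, and the labels do not say what a number marks.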

Additional observations from a re-analysis of the deposited data

How the results depend on the processing

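Counts of at least 2-fold differences depended on the filter and the scaling. Higher genes numbered 238 with a filter at 50 and 700 with quantile normalization, against 386, and lower genes 646 with a filter at 50 and 1781 without a filter, against 1153. A stricter or absent filter tests fewer or more low genes by construction, and the cause of the shift with quantile normalization was not tested. Silent genes numbered 33 in KO3 and 2 in KO1 when up to 10 reads were allowed, and 36 and 4 when the other line needed a mean of 50. Leaving out each library in turn gave 3185 to 3792 higher genes, 3382 to 3981 lower, 370 to 389 higher by 2-fold, 1106 to 1197 lower by 2-fold, and 0.80 to 0.89 for Crls1. With the replicate block for the pairing, the counts were 3874, 4023, 397 and 1159, Crls1 stayed at 0.85, and 2 named genes were called in addition. edgeR called 3766 higher and 3883 lower and DESeq2 3579 and 3719, and of the 7659 calls 7541 and 7170 were kept with the same sign. Of 270 named genes apart from Crls1, 18 lost their call and 11 gained one in at least 1 alternative. Subtracting the neighbours' median ended the call of 8 of them beside Kif4. The sign turned for 3: Cds2 at 0.21 (limma adjusted p = 0.00424) and Kif4 at 0.049 (0.354) with the neighbours' median subtracted, and mt-Co1 at 0 (1) with quantile normalization. Among gene lists, another scaling turned the sign of a median near 0 for fatty acid synthesis (-0.02), integrins (0.03) and growth factors (0.01), each with quantile normalization. The 33300033 to 42211807 reads limit differences among genes near 10 counts, and 0 reads do not show absence.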
